A study of Mus musculus with 2 samples.

Results

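The genes described here are the FGF receptors Fgfr1, Fgfr2 and Fgfr3 and the growth factors Fgf2, Cntf, Bdnf, Gdnf, Hbegf and Vegfa, measured in Müller glia (MG) after light damage and in undamaged MG. They were chosen by name, and every probe set that the array annotation ties to one of them alone was used on both arrays. Of these 9 genes, 8 had probe sets of their own, 111 in all, among 20412 genes with a value. Cntf had none, because its probe sets are shared with the neighbouring gene Zfp91, and it is described separately.

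The light damage array carried pooled RNA of 10 retinas from adult mice kept under bright white light (8 hours at 10000 lux) and taken about a week later, and the control array carried pooled RNA of 12 undamaged adult retinas. Cell sorting for fluorescence was used to purify the MG, from mice in which tamoxifen lets a Cre-ERT2 enzyme, driven by the MG-active Rlbp1 promoter, switch on a tdTomato reporter. The study also used a Hes5-GFP reporter line. For light damage these lines were crossed to albino Swiss Webster mice, which carry a leucine variant of RPE65 that alters sensitivity to light. The text does not say which mice gave the control array, so a difference in genetic background cannot be told apart from light damage. With 1 Affymetrix Mouse Gene ST array per condition there was no replicate and no test between conditions. The number of arrays limits the precision. Unless named as an SD over genes, every SD given here is the spread over probe sets on the same 2 arrays. These are exon-level probe sets, so the spread can hold differences between parts of a transcript as well as measurement noise. It does not measure variation between animals or samples.

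Fibroblast growth factors (FGFs) bind receptor tyrosine kinases on the cell surface and act largely through the ERK kinase cascade, whose output includes transcription factors such as EGR1 and the ETV family and feedback inhibitors such as the Sprouty proteins and the DUSP phosphatases. FGF2, CNTF, BDNF and GDNF are known to prolong the survival of photoreceptors or other retinal neurons, and MG are regarded as cells that both make and receive such factors. HB-EGF, the product of Hbegf, is an EGF receptor ligand that takes part in MG responses to injury, and VEGFA, made by MG, maintains retinal vessels and neurons.

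For 7 of the 9 genes, promoter sequence was present in the RefSeq tables of assembly GRCm38.p6, with 16 windows of 250 bases upstream of an annotated start. Fgfr1 and Hbegf were not among them. The binding motif of the EGR factors, searched on both strands as GCGNGGGCG, occurred in windows of Fgf2 and Fgfr3, and in 4.70% of all 32851 windows (1543 windows). The Fgf2 window and the Fgfr3 window that hold it are shown because Fgf2 differed most among these genes and Fgfr3 little, and the match is in capitals. In Fgf2 the match begins 47 bases before the start (chr3:37348403-37348652, + strand), and in Fgfr3 it lies on the opposite strand and begins 63 bases before the start (chr5:33721474-33721723, + strand).
Fgf2 promoter: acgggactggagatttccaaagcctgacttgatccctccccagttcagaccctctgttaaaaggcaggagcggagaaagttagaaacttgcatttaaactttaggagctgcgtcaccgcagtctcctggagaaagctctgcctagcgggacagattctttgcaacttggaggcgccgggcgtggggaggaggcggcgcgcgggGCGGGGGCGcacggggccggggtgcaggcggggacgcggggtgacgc
Fgfr3 promoter: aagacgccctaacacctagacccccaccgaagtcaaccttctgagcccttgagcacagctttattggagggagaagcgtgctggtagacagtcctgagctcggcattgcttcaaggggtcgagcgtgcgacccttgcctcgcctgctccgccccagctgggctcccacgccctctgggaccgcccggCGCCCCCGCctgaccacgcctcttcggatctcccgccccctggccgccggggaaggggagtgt
These windows are rich in G and C, with 62.4% in Fgf2 and 66.8% in Fgfr3, against a median of 52.4% over all windows, and a match of letters does not show that a factor binds there. The AP-1 motif, searched as TGANTCA, was found in a window of Bdnf and in the window of Cntf and in 6.75% of all windows. The core of the hypoxia-response element, ACGTG, was found in 4 of the 16 windows, in Bdnf, Gdnf and Vegfa, and in 16.6% of all windows. For Vegfa the match was in the window at chr17:46025164-46025413. The window at another annotated start of Vegfa, chr17:46032378-46032627, had none.

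Levels are given as the deposited log2 values, in which a difference of 1 is a doubling, and the level of a gene is the median of its probe sets. The difference of a gene is the median of the light damage minus control differences of its probe sets, so that it need not equal the difference of the 2 median levels. Levels of different genes are not set against each other. Counts over all genes took in the 16534 whose mean level reached 5. After light damage 289 of them (1.75%) were higher by at least 1 and 574 (3.47%) lower by at least 1, and the median difference was −0.03. With both arrays forced to the same quantiles the split was 359 higher and 428 lower.

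Among the growth factors and FGF receptors, Fgf2 alone was higher by at least 1 and no gene was lower by at least 1, out of the 7 whose mean level reached 5. Of the 8 genes with probe sets of their own, 7 had a difference above 0, as did 47.0% of all genes, and their median difference was 0.30 (SD over genes 0.53, n = 8). At the level of single probe sets, 77 of 111 were higher after light damage, 19 of them by 1 or more, and 3 were lower by 1 or more. Over all probe sets tied to 1 gene, 10.2% were higher by 1 or more and 13.2% lower by 1 or more. Most of the 19 belonged to Fgf2 and Fgfr1. Without these 2 genes, 52 of 85 probe sets were higher after light damage, 5 of them by 1 or more, and 3 were lower by 1 or more. The share of all probe sets above 0 was not counted, so 77 of 111 and 52 of 85 have no background here. No share or median over these genes was tested, since there is no replicate.

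Fgf2 encodes basic FGF, a ligand of the FGF receptors, and had the largest difference of the 8 genes. Its 4 probe sets read 9.39, 6.16, 8.52 and 9.24 on the light damage array and, in the same order, 7.89, 5.01, 7.32 and 8.20 on the control array. All 4 were higher after light damage, by 1.50, 1.16, 1.20 and 1.05. The level of the gene was 8.88 after light damage and 7.60 in the control, with a difference of 1.18 ± 0.20 (SD over 4 probe sets), or 2.26-fold. This placed it at percentile 99.0 of all genes at that minimum level, with 169 genes above it, and at percentile 98.5 of the 4159 genes with a similar number of probe sets. Of 1098 genes with 4 probe sets, 4 (0.364%), Fgf2 among them, had all of them higher by 1 or more. This criterion matches the values of Fgf2 itself, so the share is a description and no test of rarity. The study named Fgf2 as increased on these arrays, so its difference is not independent of that choice. It gave a larger fold increase for Fgf2 than the 2.26-fold found here, and how it summarised probe sets was not given in the sources used here. In RefSeq the gene overlaps Nudt6, which is transcribed from the opposite strand, and the non-coding gene Fgf2os. Nudt6, named here after its values were seen, had levels of 7.07 after light damage and 6.37 in the control and a difference of 0.69 ± 0.94 over 7 probe sets, of which 6 were higher.

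**Figure D1:**
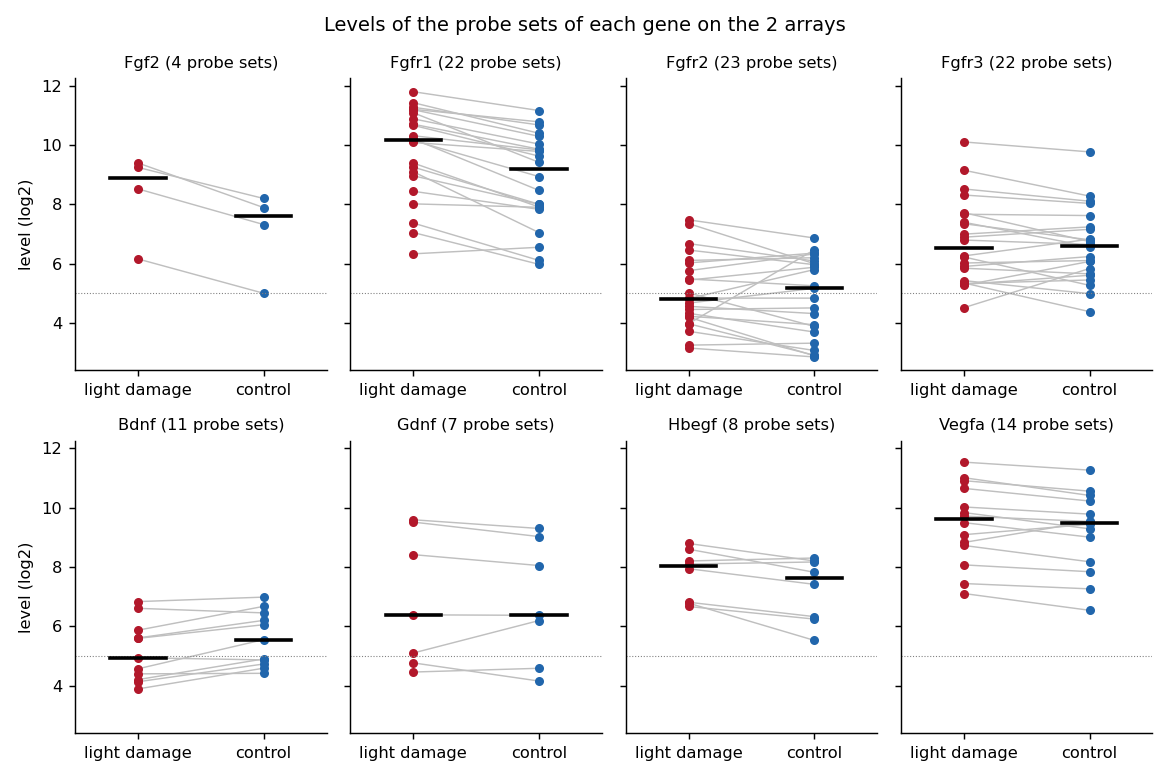
Log2 level of each probe set (points, joined by a line, with a bar at the median and a dotted line at the minimum of 5) for the 8 genes with probe sets of their own, on the light damage array at left and the control array at right of each panel. All 4 lines of Fgf2 and 21 of 22 lines of Fgfr1 are higher on the light damage side, and 2 of 11 lines of Bdnf are.

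The 3 FGF receptors differed in how evenly their probe sets moved. Fgfr1, a receptor for FGF2 that is present in many cell types, was read by 22 probe sets at 6.33 to 11.8 on the light damage array and 5.98 to 11.2 on the control array. Of these, 21 were higher after light damage, 10 of them by 1 or more, and the differences ran over a range of −0.22 to 2.05. The level of the gene was 10.2 after light damage and 9.17 in the control, with a difference of 0.93 ± 0.55 (SD over 22 probe sets), or 1.90-fold, just under the threshold of 1. At its probe set with the highest level the difference was 0.63. It lay at percentile 97.8 of all genes, with 362 genes above it, and at percentile 98.3 of the 3858 genes with a similar number of probe sets. At least 95% of probe sets were above 0 in 71 of 4411 genes (1.61%) with 15 or more probe sets, Fgfr1 among them. This criterion too matches the values of the gene itself, so the share is only a description.

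Fgfr2 and Fgfr3 encode related receptor tyrosine kinases, and both had differences within the bulk of all genes. For Fgfr2, 23 probe sets read 3.16 to 7.48 on the light damage array and 2.86 to 6.87 on the control array, with 13 of them below 5 after light damage and 11 in the control, so that the gene was near the low end of the scale. Its mean level fell marginally under the minimum of 5, and it was therefore not counted among the 7 genes. The median levels were 4.83 after light damage and 5.17 in the control, while the median of the probe set differences had the opposite sign, 0.24 ± 0.84 (SD over 23 probe sets), with 14 probe sets higher after light damage and a range of −2.49 to 1.35, and it was −0.09 over the 11 probe sets whose mean level reached 5. For Fgfr3, 22 probe sets read 4.52 to 10.1 on the light damage array and 4.39 to 9.77 on the control array. The median levels were 6.53 after light damage and 6.61 in the control, and the difference was 0.17 ± 0.61, with 13 of 22 probe sets higher, none by 1 or more, and a range of −1.32 to 0.97. For both genes the spread over probe sets was larger than the difference, and the percentiles were 74.3 for Fgfr2 and 68.4 for Fgfr3. Over all 3 receptors 48 of 67 probe sets were higher after light damage, 21 of them in Fgfr1, and this count too has no background share. By 1 or more 14 were higher, 10 of them in Fgfr1 and 4 in Fgfr2.

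**Figure D2:**
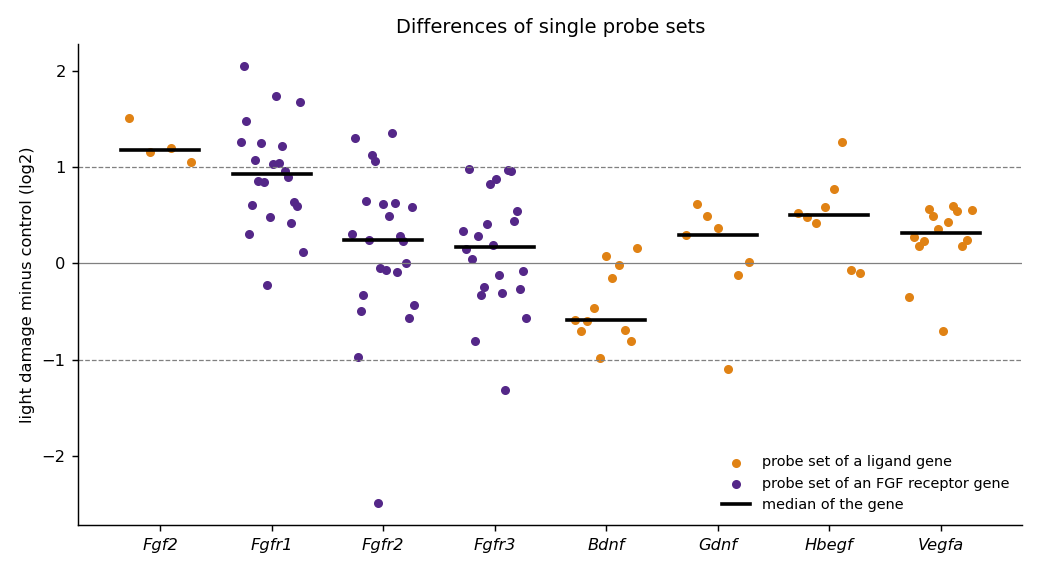
Light damage minus control difference (log2) of each probe set (points) and the median of each gene (bar), with dashed lines at 1 and −1. Fgf2 lies wholly above 1 and Fgfr1 spans −0.22 to 2.05, while Fgfr2 and Fgfr3 spread to both sides of 0.

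Hbegf encodes the membrane-anchored precursor of HB-EGF, which is shed to activate the EGF receptor. Its 8 probe sets read 6.67 to 8.79 on the light damage array and 5.53 to 8.30 on the control array, and 6 of them were higher after light damage, 1 by 1 or more. The levels were 8.02 after light damage and 7.62 in the control, and the difference was 0.50 ± 0.44 (SD over 8 probe sets), or 1.42-fold, at percentile 89.2. The 2 probe sets that were not higher were lower by 0.10 at most, as the range of −0.10 to 1.25 shows.

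Vegfa encodes the vascular endothelial growth factor A and was read by 14 probe sets, all well above the minimum level, at 7.11 to 11.5 on the light damage array and 6.54 to 11.3 on the control array. Of the probe sets 12 were higher after light damage, none by 1 or more, and the difference of 0.31 ± 0.37 (1.24-fold, range −0.70 to 0.60) lay at percentile 79.1. The levels were 9.60 after light damage and 9.48 in the control, and the spread over probe sets was larger than the difference.

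Gdnf encodes the glial cell line-derived neurotrophic factor, which signals through the RET kinase and a GFRα co-receptor. The 3 brightest of its 7 probe sets read 9.59, 9.51 and 8.42 on the light damage array and, in that order, 9.30, 9.03 and 8.05 on the control array, with differences of 0.29, 0.49 and 0.37. The other 4 probe sets were dimmer and scattered over a range of −1.09 to 0.61. The difference of the gene was 0.29 ± 0.58 (SD over 7 probe sets), at levels of 6.39 after light damage and 6.37 in the control, and it was smaller than its spread. With the mean over probe sets in place of the median it was 0.08.

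Bdnf encodes the brain-derived neurotrophic factor, the ligand of the TrkB receptor, and was the only one of the 8 genes whose median difference was below 0. Its 11 probe sets read 3.90 to 6.84 on the light damage array and 4.42 to 6.99 on the control array, with 6 below 5 after light damage and 5 in the control. Of these, 9 were lower after light damage and 2 were higher, and the differences ran from −0.98 to 0.15. The gene differed by −0.59 ± 0.38 (SD over 11 probe sets), or 0.664-fold, at percentile 13.3 of all genes. Over the 6 probe sets whose mean level reached 5 the difference was −0.53, and at the probe set with the highest level it was −0.15.

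**Figure D3:**
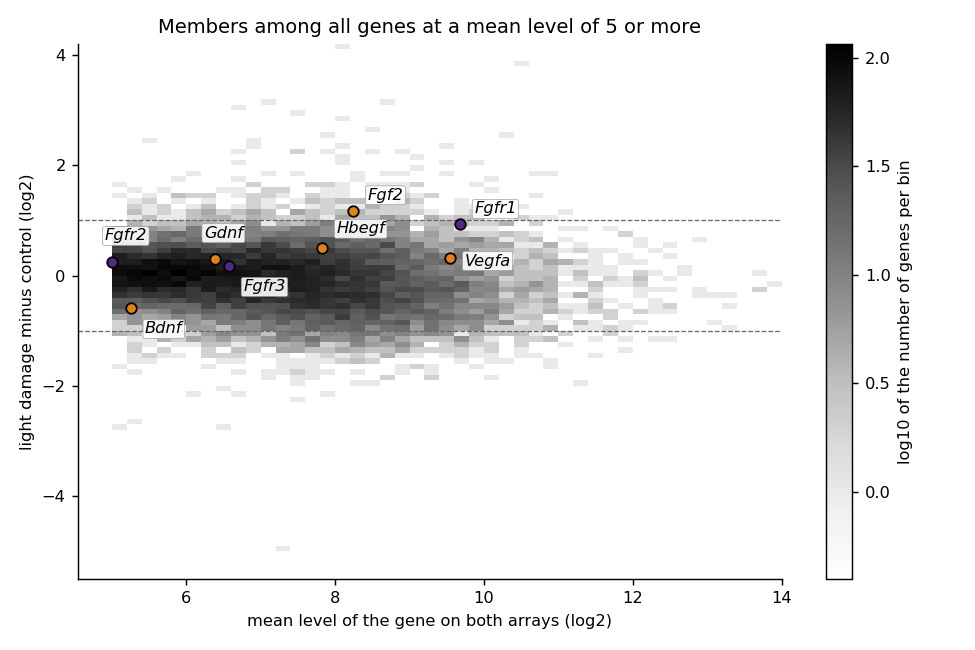
Light damage minus control difference against mean level (both log2) for all genes whose mean level reached 5, shaded by the log10 number of genes per bin, with the 8 genes as circles (ligands orange, receptors purple) and dashed lines at 1 and −1. Fgf2 at 1.18 and Fgfr1 at 0.93 lie at the upper edge of the cloud, Bdnf at −0.59 lies in its lower portion, and Fgfr2 sits at the minimum level itself.

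Cntf encodes the ciliary neurotrophic factor, a cytokine that MG and astrocytes make after injury. The annotation ties 15 probe sets to Cntf together with Zfp91 and their read-through transcript, so they cannot be assigned to Cntf alone. Their difference depended on which gene the annotation names first. The 3 probe sets that name Cntf first read 6.93, 7.18 and 7.49 on the light damage array and, in that order, 5.01, 6.40 and 7.47 on the control array, with differences of 1.92, 0.78 and 0.02. Their median difference was 0.78 ± 0.96 (SD over 3 probe sets), and the spread exceeded it. The 12 that name Zfp91 first had a median of −0.39 ± 0.59, with 3 higher after light damage, and the 2 probe sets of Zfp91 alone were lower by 0.97 and 0.47. All 15 together gave −0.17 ± 0.84, with 6 higher. No value of Cntf itself is therefore given.

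**Figure D4:**
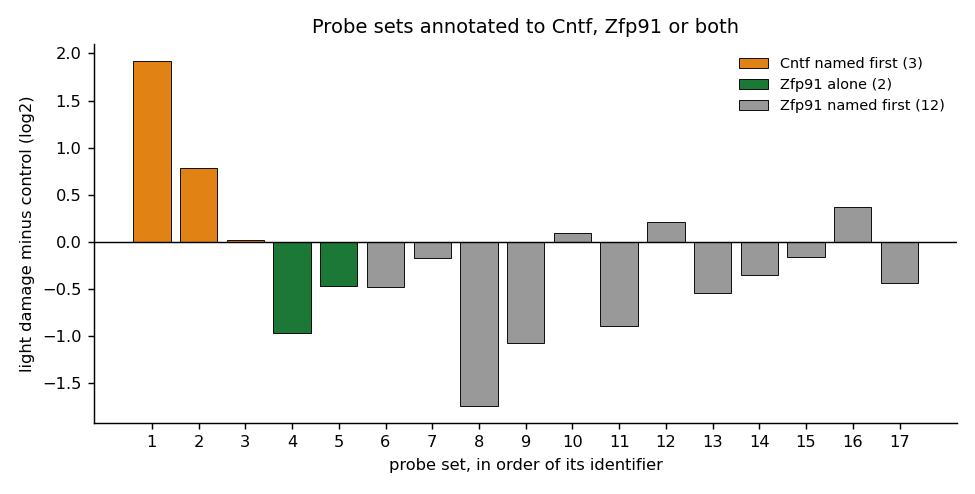
Light damage minus control difference (log2) of each probe set annotated to Cntf, Zfp91 or both (1 bar each, in the order of their identifiers), coloured by which gene the annotation names first. The 3 bars naming Cntf first (orange) reach 0.02 to 1.92, the 2 of Zfp91 alone (green) lie below 0, and 3 of the 12 naming Zfp91 first (grey) lie above 0.

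The wider pathways were described by lists of ligands, receptors and targets, with counts over those of their genes that reached the minimum level and with the 1.75% higher and 3.47% lower of all genes as background. These lists, like the 9 genes, were chosen with earlier results of these data known. Among 18 FGF ligands Fgf2 passed 1 and no ligand passed −1, 9 were above 0, and the median was 0.01. Of 14 FGF receptors, co-receptors and adaptors none passed 1 in either direction, 8 were above 0, and the median was 0.13. Fgfr4, the remaining FGF receptor kinase, differed by −0.12 ± 0.78 over 18 probe sets, and Fgfrl1, a related receptor without a kinase domain, by 0.49 ± 0.29 with all 7 probe sets higher. Both were named after their values were seen, to complete the receptor family.

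Of 16 target and feedback genes of FGF and ERK signalling, 1 passed 1 and none passed −1, 11 were above 0, and the median was 0.37. Dusp5, which encodes a phosphatase that inactivates ERK, had levels of 9.09 after light damage and 7.59 in the control, a difference of 1.39 ± 0.27, with all 5 probe sets higher by 1 or more. Egr1, Etv5, Spry1, Spred2, Spry4, Dusp6 and the other genes of this list given here were named after their values were seen. Egr1, an immediate early transcription factor, was at 11.6 after light damage and 9.89 in the control (0.90 ± 0.74, 3 of 3 probe sets higher). Etv5, an ETS transcription factor downstream of FGF receptors, differed by 0.80 ± 0.65 with 13 of 13 probe sets higher, and Spry1, a Sprouty inhibitor, by 0.72 ± 0.41 with 8 of 8 higher. Spred2, Spry4 and Dusp6, which also restrain ERK signalling, differed by 0.63 ± 0.55, 0.59 ± 0.19 and 0.53 ± 0.36. Of the 5 genes of the list that were not above 0, Spry3 was lowest, at −0.78 ± 0.09 with 0 of 2 probe sets higher. The others were Etv4 at −0.39 ± 1.12, Etv1 at −0.14 ± 0.56, Spred1 at −0.09 ± 0.66 and Spry2 at −0.07 ± 1.09. Spred3 and Dusp4 differed by 0.28 ± 0.32 and 0.25 ± 0.54.

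For the cytokine family of CNTF, 5 ligands had a sufficient level 4 of them were above 0, the median was 0.29, and 1 was lower by 1 or more. This was Osm, oncostatin M, with levels of 4.65 after light damage and 6.04 in the control and a difference of −1.19 ± 0.65 over 5 probe sets. Of the 6 receptor genes 1 was higher and 1 lower by 1 or more, and the median was 0.37. Osmr, the oncostatin M receptor, was at 9.77 after light damage and 8.11 in the control, higher by 1.33 ± 0.61, with 19 of 19 probe sets higher, 17 of them by 1 or more. Il11ra1, an interleukin-11 receptor chain read by 1 probe set, was at 6.69 after light damage and 7.70 in the control, a difference of −1.01. Cntfr, the receptor subunit that binds CNTF, and its signalling partners Il6st (gp130) and Lifr were named after their values were seen. Cntfr was at 10.7 after light damage and 9.98 in the control (0.77 ± 0.35, 8 of 8 probe sets higher), Il6st differed by 0.30 ± 0.29 with 17 of 18 higher, and Lifr by −0.46 ± 0.64 with 3 of 21 higher.

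Receptors of BDNF were unlike each other. Ngfr, the p75 neurotrophin receptor, was at 9.85 after light damage and 8.72 in the control and higher by 1.01 ± 0.43, with all 8 probe sets higher, 4 of them by 1 or more. It was the 1 gene of 4 neurotrophin receptors to pass 1, and Ntrk2, which encodes TrkB and was named after its values were seen, differed by −0.12 ± 0.86 with 13 of 27 probe sets higher. All 4 GDNF family ligands were above 0, with a median of 0.46 and the largest difference in Pspn, persephin, at 0.57 ± 0.26 over 2 probe sets. Of 6 GDNF family receptors 4 were above 0, and the median was 0.14. Gfra2, a co-receptor that prefers neurturin, had the largest difference, 0.62 ± 0.63, with 8 of 12 probe sets higher. No gene of either GDNF list passed 1.

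In the EGF family none of 9 ligands and none of 9 receptor and shedding genes passed 1 in either direction, and the medians were 0.45 and −0.08. Nrg1, neuregulin 1, had the largest difference of the ligands at 0.70 ± 0.65, with 12 of 15 probe sets higher, and Tgfa, another ligand of the EGF receptor named after its values were seen, differed by 0.63 ± 0.19 with 7 of 7 higher. Cd44, a hyaluronan receptor some forms of which carry HB-EGF, was at 8.16 after light damage and 6.88 in the control (0.85 ± 0.70, 22 of 23 probe sets higher). The study also named Cd44 as increased on these arrays and gave it a larger fold increase. Egfr and Erbb2, the receptor kinases, were named after their values were seen and differed by 0.27 ± 0.46, with 26 of 33 probe sets higher, and by 0.85 ± 0.76, with 28 of 29 higher. Among 9 VEGF and PDGF ligands none passed 1 and the median was 0.23, with the largest difference in Pgf, placental growth factor, at 0.85 ± 0.93 and 6 of 8 probe sets higher. Of 5 VEGF receptors none passed 1 and the median was 0.26. Flt1, which encodes VEGFR1, was at 11.0 after light damage and 10.6 in the control (0.57 ± 0.53, 28 of 33 higher), and Kdr, which encodes VEGFR2, was at 12.2 after light damage and 11.9 in the control (0.26 ± 0.56, 24 of 29 higher).

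**Figure D5:**
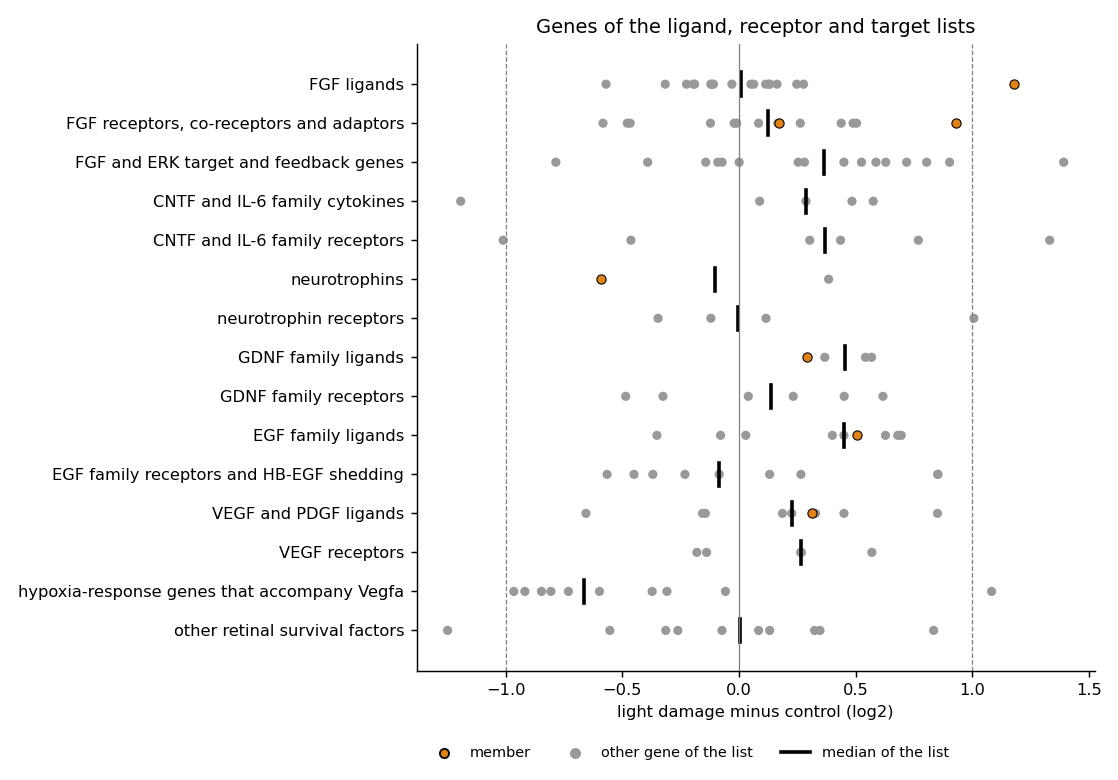
Light damage minus control difference (log2) of each gene that reached the minimum level (points) in the ligand, receptor and target lists, with the median of each list (bar), genes of the 9-gene set in orange, and dashed lines at 1 and −1. Fgfr2, marginally under the minimum level, and Cntf, with no probe set of its own, are not plotted. Fgf2 at 1.18, Dusp5 at 1.39, Osmr at 1.33, Ngfr at 1.01 and Epas1 at 1.08 lie beyond 1, and Osm at −1.19, Il11ra1 at −1.01 and Nxnl1 at −1.25 lie beyond −1.

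The composition of the sorted cells bears on all of these values, and in such bulk RNA fewer cells of a type and less RNA per cell cannot be told apart. All 12 MG marker genes had a sufficient level, at 9.01 to 13.1 on the light damage array and 9.16 to 13.4 on the control array. Their median difference was −0.03, but they went both ways, with 6 of the 12 above 0 and a range of −0.67 to 1.15. Glutamine synthetase (Glul) was at −0.34 ± 1.06, and 1 gene, Crym, was higher by 1 or more at 1.15 ± 0.30. Rod genes were also bright. Of the 7 with a value none was above 0, 4 were lower by 1 or more, and their median level was 10.5 after light damage and 12.0 in the control, a median difference of −1.07. Pdc differed by −1.91 ± 0.29, Cnga1 by −1.47 ± 0.65 and Pde6b by −1.33 ± 0.47, while Gnat1, the brightest in the control, differed by −0.29 ± 0.21. Sag, named after its values were seen, was nearly level at −0.03 ± 0.79, with 7 of 17 probe sets higher. All 6 endothelial genes were above 0, as were 47.0% of all genes, with none at 1 or more (median 0.31). Cldn5 differed by 0.49 ± 0.46, and the spread over probe sets exceeded the difference in the rest. These were Kdr at 0.26 ± 0.56 and, named after their values were seen, Pecam1 (0.28 ± 0.73), Cdh5 (0.31 ± 0.86), Tek (0.31 ± 0.88) and Tie1 (0.44 ± 1.07). Kdr was at 12.2 after light damage and 11.9 in the control, and which cells gave its signal was not tested. All 3 pericyte genes were above 0 (median 0.59), with Rgs5 at 1.13 ± 0.70 and Pdgfrb at 0.59 ± 0.67. Their median levels were 6.04 after light damage and 5.69 in the control for endothelial genes and 6.86 after light damage and 5.80 in the control for pericyte genes. The other lists had medians within 0.23 of 0, namely −0.10 over 6 microglial genes (Ptprc at 0.42 ± 1.37 and Cx3cr1 at −0.39 ± 0.26), 0.07 over 4 genes of the retinal pigment epithelium (Ttr at −0.61 ± 0.51 and Rgr at 0.18 ± 0.75), 0.23 over 3 astrocyte genes and −0.17 over 5 ganglion and amacrine cell genes. In the astrocyte list Gfap, which reactive MG also express, was higher by 3.05 ± 1.08 and Pax2 differed by 0.23 ± 0.67, and in the ganglion and amacrine list Thy1 was higher by 1.32 ± 0.60 and Slc6a9 differed by −0.42 ± 0.87. The microglial markers Aif1 and P2ry12 and the pigment epithelium markers Rpe65 and Tyr, named after their values were seen, were below 5 on both arrays, and the median level of the 6 microglial genes that reached the minimum was 6.28 after light damage and 6.20 in the control. The part of any of these cells in the values of the growth factors and FGF receptors was not tested.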

How the data were processed

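MG of light damaged and undamaged adult retinas were compared on 1 array per condition. The authors deposited log2 expression values per exon-level probe set, normalized with Affymetrix Power Tools and analysed with the TM4 Multi-Experiment Viewer. For versions, background correction and summary, the methods were not given in the sources used here. Biotin labelling was assumed, although the protocol also names Cy3.

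Of 241576 probe sets, 212138 were tied to 1 gene by the platform annotation, 4672 to several and 24766 to none. Only those of 1 gene were used, except at the Cntf locus. Of 20422 symbols, 17626 were current in RefSeq (GRCm38.p6), 2689 were updated by synonym and 107 were kept. The files name no build, so no probe set was placed by coordinates, and RefSeq positions served only for the promoter windows and for gene overlaps. A gene's level and difference were medians over its probe sets. Counts took in genes whose mean level reached 5 and used a threshold of 1 in each direction. By rule, single genes were named when they were among the 9, when they were the up to 3 genes of a list past 1 with the largest differences (otherwise the largest 1), or when they were the brightest control marker of a list. Genes named outside this rule are marked as named after their values were seen. The likeness of other genes to these was not ranked, since 2 arrays give 1 difference per gene. The genes and lists were chosen with earlier results of these data known.

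Calculations ran in Python (version 3.11.15) with the libraries pandas 2.3.3, numpy 2.4.6, statsmodels 0.14.6 and scipy 1.17.1. Plots were drawn with matplotlib 3.10.9. The gene summary by medians and the threshold of 1 were first tested on differences shuffled between probe sets, with known shifts added. Quantile normalization, median centring and the loess removal were tested on a uniform shift of 1 array. Other steps were not simulated. Alternatives were quantile normalization, median centring, removal of a loess trend (span 0.3), an offset of 32 before log2, other gene summaries, probe set and level filters (5, none, 7) and a threshold of 0.5.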

Additional observations from a re-analysis of the deposited data

Results flagged for a closer look

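The 3 probe sets that name Cntf first lie outside the values used for single genes, since they are shared with Zfp91, and they gave a median difference of 0.78 (SD 0.96), with 3 of 3 higher on the light damage array than on the control array. The 2 probe sets of Zfp91 alone had a median of −0.72.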

How the results depend on the processing

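Fgf2 kept a difference above 1 under all 9 settings that gave gene differences, the main one included (1.01 to 1.23). Adding shared probe sets or leaving out those below 5 could not move Fgf2, because its 4 probe sets stayed the same. The sign of every gene difference held except for Fgfr2 (−0.09 to 0.61, negative with probe sets below 5 left out). The number of the 9 genes higher by 1 or more was 2 with quantile normalization and with the loess trend removed, which brought Fgfr1 to 1.04 and 1.05, against 1 otherwise at the threshold of 1. Fgfr1 was at 0.63 with its highest-level probe set alone and at 0.86 with the offset. With a threshold of 0.5 the number higher was 3 (Fgf2, Fgfr1 and Hbegf), and 1 gene, Bdnf, was lower. The median difference over all of the 9 genes with a value ran over 0.20 to 0.46. At a mean level of 7 or more it was 0.72, but only 4 genes were left. Bdnf moved to −0.15 with its highest-level probe set alone, was −0.26 with the offset and was −0.53 over its probe sets at 5 or more. Gdnf was at 0.08 with the mean over probe sets, and Vegfa ran over 0.26 to 0.50. Over all genes the counts of 289 higher and 574 lower became 1107 and 1342 with the highest-level probe set, 155 and 309 with the offset, 194 and 450 at a mean level of 7, 359 and 428 with quantile normalization and 354 and 435 with the loess trend removed. Using the 3 probe sets that name Cntf first was chosen after seeing the data. No paired analysis was possible because each condition has 1 array and the labels give no shared replicate numbers. With 1 array per condition no value has a replicate check, and low signals of Fgfr2 and Bdnf limit what their probe sets can show.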

Other observations

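Genes of the response to low oxygen, regulators as well as targets, were read as a further list beside Vegfa. Of the 10 such genes that reached the minimum level, 1 was above 0, and the median was −0.66. This was Epas1, which encodes the hypoxia-inducible factor HIF-2α, with levels of 10.9 after light damage and 10.0 in the control and a difference of 1.08 ± 0.37, all 19 probe sets higher. Hif1a, named after its values were seen, was at 10.3 after light damage and 11.0 in the control (−0.92 ± 0.49, 2 of 18 probe sets higher). The glycolytic genes Ldha and Pgk1, also named after their values were seen, were at 10.9 after light damage and 12.1 in the control (−0.85 ± 0.80) and at 10.4 after light damage and 11.4 in the control (−0.96 ± 0.43). Slc2a1, named in the same way, differed by −0.06 ± 0.46. The rod marker genes had a median difference of −1.07, over a range of −1.91 to −0.03. The part of photoreceptors or of low oxygen in the values of this list was not tested.

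Of 10 other factors known for effects on retinal survival, 5 were above 0, the median was 0.01, none was higher by 1 or more and 1 was lower by 1 or more. This was Nxnl1, which encodes the rod-derived cone viability factor and is made by photoreceptors. It was at 7.46 after light damage and 8.86 in the control (−1.25 ± 0.17, 0 of 4 probe sets higher), beside rod marker genes that were lower by a median of 1.07. Cxcl12, a chemokine named after its values were seen, differed by 0.83 ± 0.63 with 6 of 7 probe sets higher.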
